A study of Drosophila melanogaster and Drosophila virilis with 60 samples.

Results

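The step from P2 to P3 in *Drosophila virilis* compares the stage of the brown puparium (P2) with the bubble prepupa (P3), in which a gas bubble becomes visible inside the puparium. The comparison was defined by stage alone, as the 3 P3 libraries against the 3 P2 libraries, and was repeated without P3 replicate 3, which stood apart from the other P3 libraries. These 6 libraries are part of 30 libraries of *D. virilis* and of 60 in a dataset that follows *D. virilis* and *D. melanogaster* from the embryo through metamorphosis to the adult. All animals of *D. virilis* were wild type, of strain 9, raised at 25 °C without any treatment, and each library holds the poly(A) RNA of a pool of whole animals. Stages were recognised by eye and pupae were not separated by sex, so that P2 and P3 differ in recorded stage only. Besides P2 and P3, the 30 libraries cover embryos aged 15 h, larvae of instar 2, the pupal stages P1, P4 and P5, pupae aged 36 h and 72 h, and adult males (imago) aged 5 d, with 3 libraries at each of the 10 stages.

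In *Drosophila*, the steroid hormone ecdysone triggers puparium formation, after which the hormone falls and then rises again before the head everts. Between these pulses the animal is a prepupa: larval muscles and gut begin to be dismantled, imaginal discs evert into legs and wings, and the epidermis detaches from the larval cuticle and lays down the cuticle of the pupa. The epidermis secretes a further cuticle, that of the adult, later in pupal life. Because whole animals were pooled, fewer cells of a type and less RNA per cell cannot be told apart in these data.

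The identifiers of *D. virilis* are numbered loci. The reference tables used here name 0 of them, so that none of the 27 lists of metamorphosis genes and cell type markers could be matched. The genes are therefore described by their levels and by their behaviour at the other stages, and 4 are given by identifier.

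Values in the deposited table follow a log2 scale on which 3.09 stands for a count of 0 and small levels are compressed. Undoing the transformation returned whole counts, within 0.01 of a whole number for 100% of values, and their total is given below as the depth of the table. The study's text states fewer reads per sample than these totals, a difference that was not resolved here, so that intervals from the counts hold only if they are numbers of reads. The P2 libraries held 10183539, 8918754 and 6647919 counts (replicates 1 to 3) and the P3 libraries 6642438, 9389154 and 6674223, within the range of 2108242 to 11339330 of all 30. The P2 libraries resembled each other, with Spearman correlations across genes of 0.963 to 0.983. P3 replicates 1 and 2 correlated at 0.973, whereas P3 replicate 3 correlated at only 0.858 and 0.906 with them. The median standard deviation (SD) of a gene was 0.237 over the 3 P2 libraries, 0.429 over the 3 P3 libraries and 0.149 over P3 replicates 1 and 2. P4 replicate 3 and 72 h replicate 3 stood apart from their replicates as well. The steps and classes that use them are given with and without them, except the step from P3 to P4.

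The genes that rose from P2 to P3 had a larger median difference than the genes that fell. The share of all counts taken by the genes that rose went from 3.6% to 16.3% on average. Since these genes were chosen by their rise, only the size of that change is informative, as a description. Of 13637 genes tested, 760 rose (5.57%) and 648 fell (4.75%) in a limma model of all 30 libraries at a Benjamini-Hochberg adjusted p below 0.05. Without P3 replicate 3, 750 genes rose (5.5%) and 543 fell (3.98%). The genes called in both fits were 650 that rose (4.77%) and 453 that fell (3.32%), and these 1103 genes are described below. A further 305 genes were called only with P3 replicate 3 and 190 only without it, and 0 were called in opposite directions. When only the P2 and P3 libraries were fitted, 473 rises and 233 falls were called, of which 457 and 225 were among the 650 and the 453. With P3 replicate 3 left out of that fit the counts were 900 and 517. The study's downstream analyses left out an outlying replicate of P3 and of P4, whose replicate numbers its text does not give. A fit of 28 libraries, without P3 replicate 3 and P4 replicate 3, called 890 rises and 679 falls. Among them were all of the 650 and the 453. All 3 P3 libraries lay above all 3 P2 libraries for 645 of the 650 genes, against 11.1% of all genes tested, and below them for 451 of the 453, against 9.74%. Since the same libraries made the calls, this separation is a description and no further support for them.

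The 650 genes that rose had a median difference of 1.73 on the deposited scale, with quartiles of 1.17 and 3.03. Their median level went from 6.47 at P2 to 8.87 at P3. The difference was at least 1 in 550 of them (84.6%), at least 2 in 284 and at least 4 in 108, whereas 9.04% of all genes tested differed by at least 1 in either direction. On the scale of normalized counts 588 rose at least 2-fold and 211 at least 10-fold. Of the 650, 39 had at most 3 counts in the 3 P2 libraries together, and among all genes 6 had 0 counts in every P2 library and at least 10 in every P3 library.

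The 453 genes that fell had a median difference of -1.39, with quartiles of -2.03 and -0.99, and their median level went from 8.43 to 6.7. The difference was at least 1 in 338 of them (74.6%), at least 2 in 116 and at least 4 in 10. On the scale of normalized counts 374 fell at least 2-fold and 62 at least 10-fold. The number of genes with 0 counts in every P3 library and at least 10 in every P2 library was 2. The median difference over all genes tested was 0.01, and -0.03 without P3 replicate 3. When all genes were split by mean level into 4 bins of equal size, genes that rose made up between 2.9% and 6.13% of a bin and genes that fell between 2.05% and 4.11%, in both cases with the smallest share in the bin of lowest level.

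The largest rise was that of LOC6635851. This gene had 4, 0 and 0 counts in P2 replicates 1 to 3 and 5374, 13915 and 6300 counts in the P3 libraries. All 3 P3 libraries were thus far above P2, which was at or close to 0. The difference on the deposited scale was 9.82 (standard error (SE) 0.505, n = 3 and 3, limma adjusted p = 3.3e-13), and 10.12 (SE 0.556, limma adjusted p = 3.3e-12) without P3 replicate 3. From the summed counts, corrected for library size, the level was 7450-fold that of P2, with a 95% interval of 2910 to 27400 that covers counting error only. LOC6635851 was still high at P4, with 1972, 1512 and 568 counts, and then dropped to 35, 76 and 32 counts at P5 and 4, 7 and 0 counts at 36 h. It returned at 72 h with 5639, 2335 and 3689 counts, so that its RNA was abundant in 2 separate periods.

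LOC6636920, with the next largest rise, peaked a stage later. It had 2, 0 and 2 counts at P2 and 3630, 9485 and 9159 counts at P3. The difference was 9.44 (SE 0.355, limma adjusted p = 2.44e-15), and 9.38 (SE 0.402, limma adjusted p = 4.58e-14) without P3 replicate 3. At P4 this gene reached 50998, 65114 and 29528 counts, more than in any P3 library, and at P5 it was back at 248, 389 and 308 counts. Unlike LOC6635851, it did not return in late pupae, where 12, 6 and 6 counts were found at 72 h.

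LOC6623447 showed the largest fall. It had 1013, 599 and 857 counts at P1, 2920, 2575 and 1814 at P2, and only 19, 15 and 5 at P3. The P2 and P3 libraries were widely separated, and at P4 only 0, 0 and 1 counts were left. The difference was -6.39 (SE 0.256, limma adjusted p = 4e-15), and -6.02 (SE 0.236, limma adjusted p = 2.23e-14) without P3 replicate 3. The level at P2 was 161-fold that at P3 (95% interval 118 to 226, counting error only).

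LOC6628549, with the next largest fall, was already high at P1, with 3842, 2369 and 2614 counts. It had 3048, 2835 and 1181 counts at P2 and 41, 22 and 11 at P3. The difference was -5.7 (SE 0.341, limma adjusted p = 3.9e-12), and -5.3 (SE 0.338, limma adjusted p = 3.27e-11) without P3 replicate 3. In contrast to LOC6623447, with at most 1 count in the imago, this gene had 49, 14 and 45 counts there. For both genes that fell, P3 replicate 3 was the lowest of the P3 libraries.

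**Figure D1:**
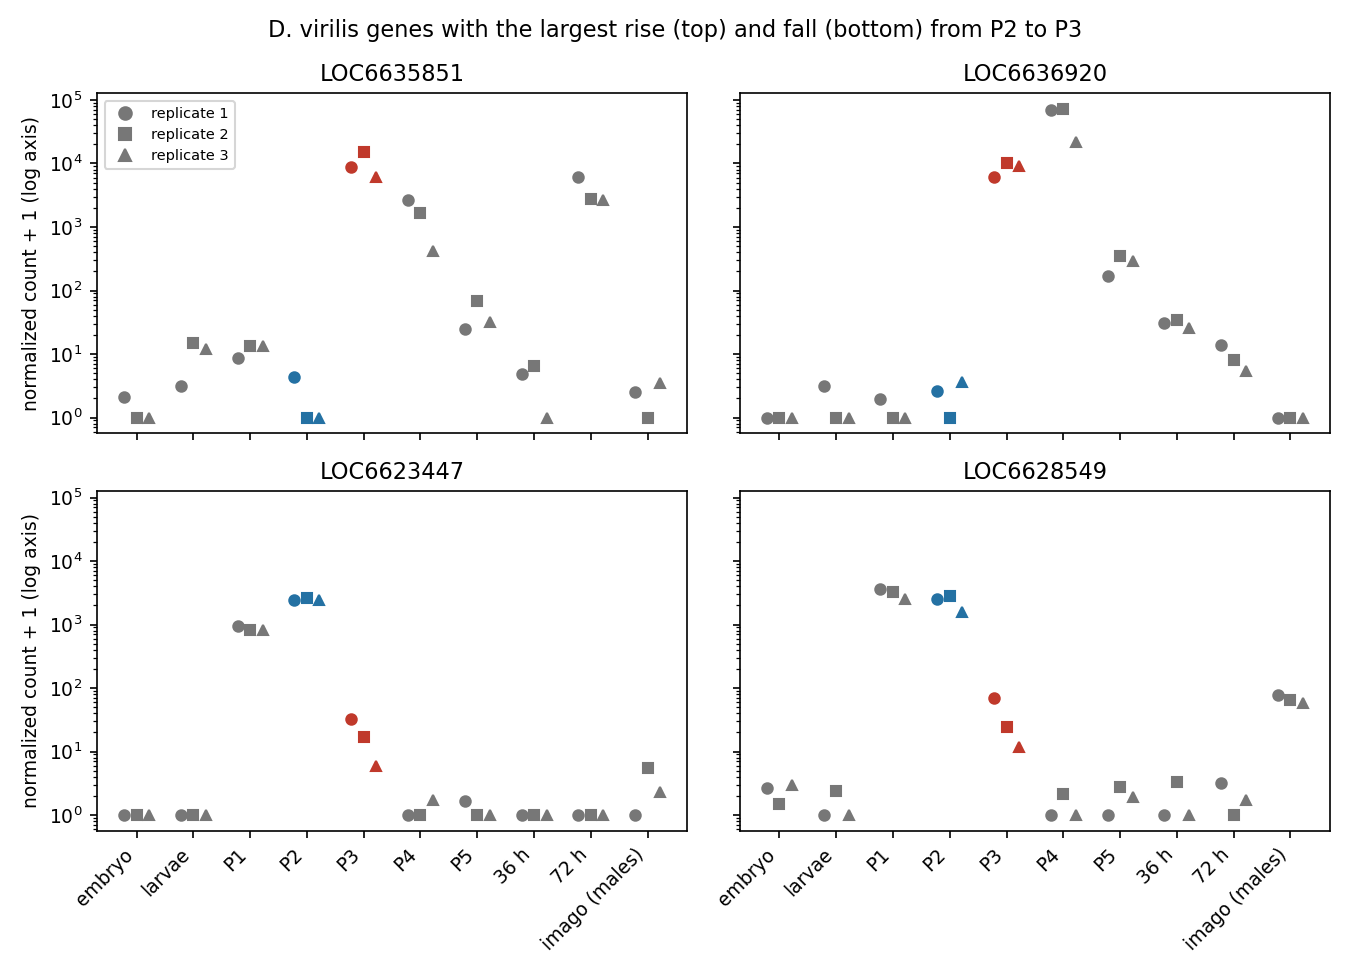
Normalized counts plus 1 (log axis) of 4 genes in all 30 libraries of *D. virilis*, with 1 symbol per replicate, P2 in blue and P3 in red. LOC6635851 is high at P3, P4 and again at 72 h, LOC6636920 peaks at P4, and LOC6623447 and LOC6628549 are high at P1 and P2 and nearly absent from P4 on, apart from LOC6628549 in the imago.

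The genes that rose took 3.47%, 3.26% and 4.07% of all counts in P2 replicates 1 to 3 and 14.4%, 16.5% and 18% in the P3 libraries (means ± SD of 3.6% ± 0.42 and 16.3% ± 1.8, n = 3 each). The direction of this change was fixed by the choice of the genes. At P4 their share was 21.8%, 22.4% and 15.1%, with P4 replicate 3 the lowest. It then fell to between 6.14% and 6.54% at P5 and between 2.81% and 3% at 36 h, and was 11.6% to 13.4% at 72 h. Thus the genes raised at P3 occupied a large part of the libraries in 2 periods, P3 to P4 and 72 h, separated by the low values of the pupae aged 36 h. The 18 most abundant of these genes held 50% of the share at P3.

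The 10 of them with the most counts at P3 behaved differently from the other 640. They held 0.0571% to 0.101% of counts at P1 and 1.46% to 2.14% at P2, so that their share was already raised at P2. At P3 they held 6.57%, 7.21% and 5.87%, and at P4 5.98%, 6.49% and 4.13%. By 36 h their share was 0.0371% to 0.0439%, and at 72 h it was 0.0857% to 0.255%. The other 640 genes held 1.7% to 1.9% at P1 and 1.8% to 1.95% at P2. They held 7.87%, 9.25% and 12.2% at P3, and 11.5% to 13.2% at 72 h. The return in late pupae was therefore carried by these 640 genes and not by the most abundant 10.

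The genes that fell took 9.06%, 9.04% and 8.43% of counts at P2 and 2.26%, 1.82% and 1.98% at P3 (means ± SD of 8.84% ± 0.358 and 2.02% ± 0.222, n = 3 each). Their share was highest at P1, at 11.7% to 12.7%, and was 5.34% to 5.56% in larvae. It was 5.51% to 6.11% at P4 and between 1.54% and 2.88% at P5, 36 h and 72 h. The 6 most abundant of these genes held 50% of the share at P2. The P3 share was thus lower than both the P2 and the P4 shares in every library. Choosing the genes by their fall fixed the direction from P2 to P3 and favours low P3 values. The median value of the 453 genes was 8.42, 8.41 and 8.45 in P2 replicates 1 to 3 and 7, 6.75 and 6.37 at P3. At P4 it was 7.05, 7.09 and 7.13.

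**Figure D2:**
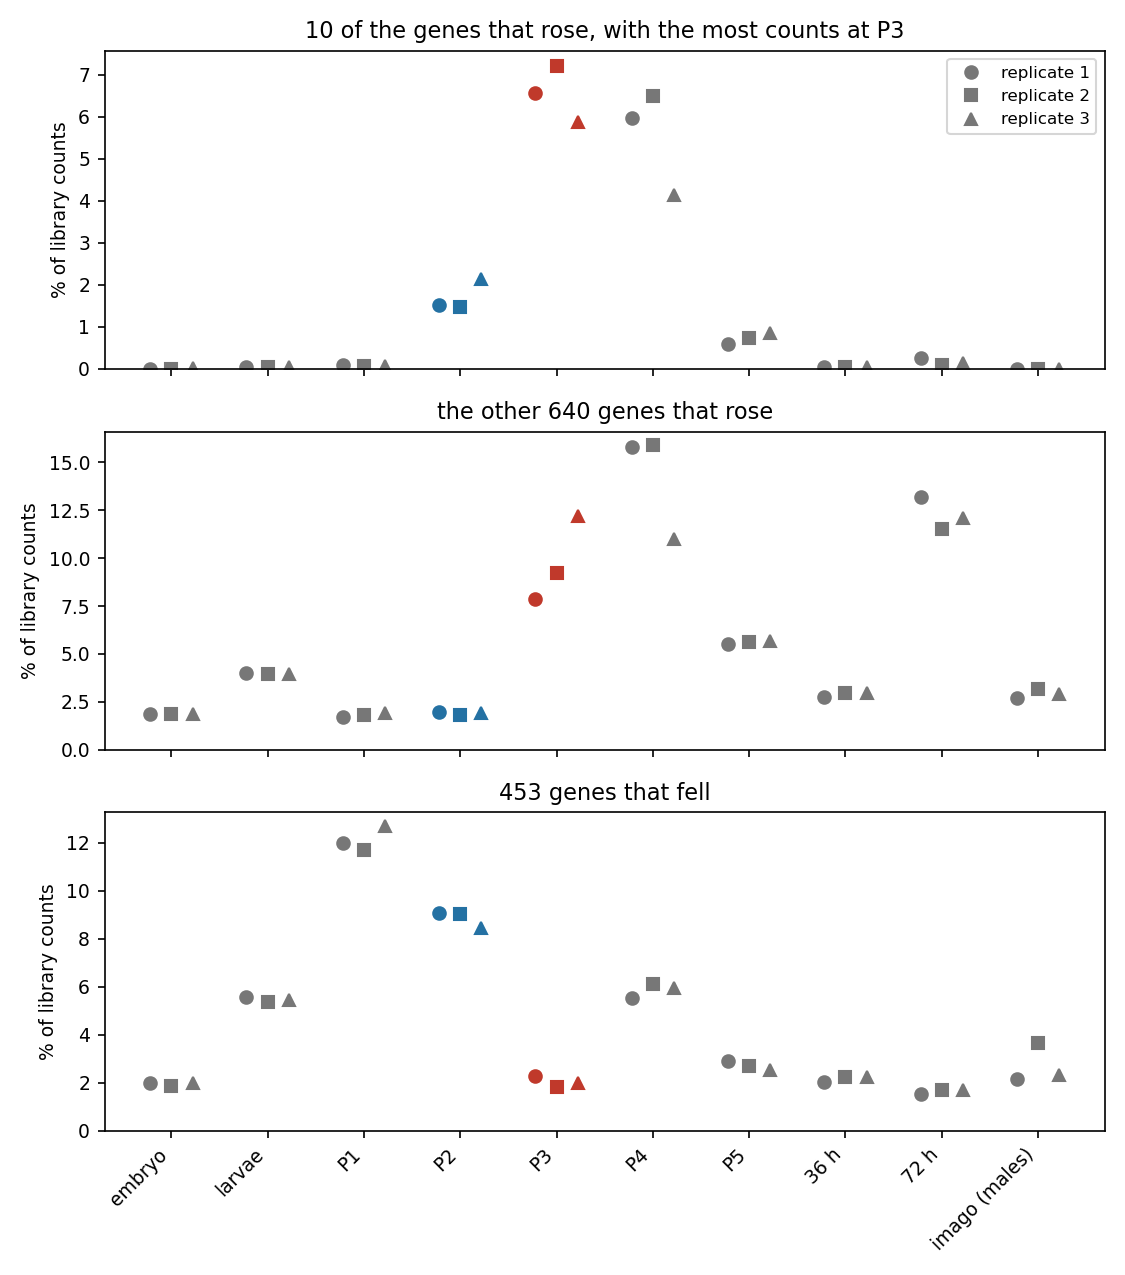
Share of all counts of a library (%, axes from 0) taken by the 10 genes that rose with the most counts at P3, by the other 640 genes that rose and by the 453 genes that fell, in all 30 libraries, with 1 symbol per replicate, P2 in blue and P3 in red. The 10 genes are highest at P3 and P4, the 640 genes are high at P3, P4 and 72 h, and the 453 genes are highest at P1 and P2.

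The same genes were then followed through steps of development that use neither P2 nor P3 libraries, from the same fit of 30 libraries. Of the 650 genes that rose, 420 (64.6%) were higher at P4 than at P1, against 12% of all genes tested, and 36 (5.54%) were lower, against 11.5%. Of the 453 genes that fell, 317 (70%) were lower at P4 than at P1 and 50 (11%) were higher. Without P4 replicate 3, 429 of the 650 (66%) were higher and 28 (4.31%) lower, and 310 of the 453 (68.4%) were lower and 50 (11%) higher. In that fit 11.2% of all genes tested were higher and 10.1% lower. For most of these genes the change was therefore also called between the stages on either side.

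From P4 to P5, 292 of the 650 (44.9%) fell again, against 9.62% of all genes tested, and 43 (6.62%) rose, against 5.9%. Without P4 replicate 3 the counts were 324 (49.8%) and 29 (4.46%), against 9.54% and 4.18% of all genes tested. Of the 453 genes that fell, 67 (14.8%) rose from P4 to P5 and 99 (21.9%) fell, both above the shares of all genes tested. Without P4 replicate 3 these counts were 66 (14.6%) and 96 (21.2%). From 36 h to 72 h, 337 of the 650 (51.8%) rose, against 16.7% of all genes tested, and 74 (11.4%) fell, against 10.1%. Without 72 h replicate 3 the counts were 330 (50.8%) and 56 (8.62%), against 13.8% and 7.68% of all genes tested. From 72 h to the imago 331 (50.9%) fell, against 16.5%, and 160 (24.6%) rose, against 31.1%. Without 72 h replicate 3 the counts were 327 (50.3%) and 148 (22.8%), against 17.3% and 31.1% of all genes tested. Of the 453 genes that fell, 73 (16.1%) rose from 36 h to 72 h and 97 (21.4%) fell. From 72 h to the imago 222 of them (49%) rose and 89 (19.6%) fell. Without 72 h replicate 3 these counts were 71 and 83 for the first step and 215 and 83 for the second.

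Sorted by these calls, 200 of the 650 genes were both higher at P4 than at P1 and higher at 72 h than at 36 h, 220 met only the first criterion, 137 only the second and 93 neither. The share of all genes tested in each class was not computed, so that these class sizes are a description. Without P4 replicate 3 and 72 h replicate 3 these classes held 211, 225, 133 and 81 genes. The 200 genes with both started lowest, with a median level of 5.62 at P2 and 8.85 at P3, whereas the 93 genes with neither had median levels of 7.33 and 9.32. The 137 genes with the second criterion only had median levels of 6.53 and 9.04. Their P4 minus P1 difference had a median of 0.03 with quartiles of -0.47 and 0.36, and 19 of them were called lower at P4 than at P1. With P4 replicate 3 left out the median was 0.04, and 6 were called higher and 16 lower. When each gene was assigned the stage of its highest mean among the 8 stages other than P2 and P3, 207 of the 650 (31.8%) peaked at 72 h and 180 (27.7%) at P4. The corresponding shares of all genes tested were 8.32% and 7.02%. Without P4 replicate 3 and 72 h replicate 3 the counts were 219 (33.7%) and 202 (31.1%), against 7.68% and 7.99% of all genes tested.

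Many of the genes that fell had risen between larvae of instar 2 and P1. No later larvae of *D. virilis* were sampled, so that the rise cannot be placed at pupariation itself. From larvae to P1, 257 of the 453 (56.7%) rose, against 32.5% of all genes tested, and 101 (22.3%) fell, against 25.6%. Of the 650 genes that rose later, in contrast, 145 (22.3%) rose and 290 (44.6%) fell at that step. In total, 194 of the 453 were higher at P1 than in larvae and lower at P4 than at P1, a rise and fall judged with the same P1 libraries. These 194 were the most abundant at P2, with a median level of 9.33 that became 7.17 at P3. Another 123 were lower at P4 than at P1 without having been raised at P1, 63 were raised at P1 only and 73 met neither criterion. For these classes, too, the share of all genes tested was not computed. Leaving out P4 replicate 3 and 72 h replicate 3, the class of 194 held 193 genes, and the other classes 122, 66 and 72. Among the 8 other stages, 200 of the 453 (44.2%) peaked at P1 and 104 (23%) in larvae, against 9.09% and 18% of all genes tested.

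**Figure D3:**
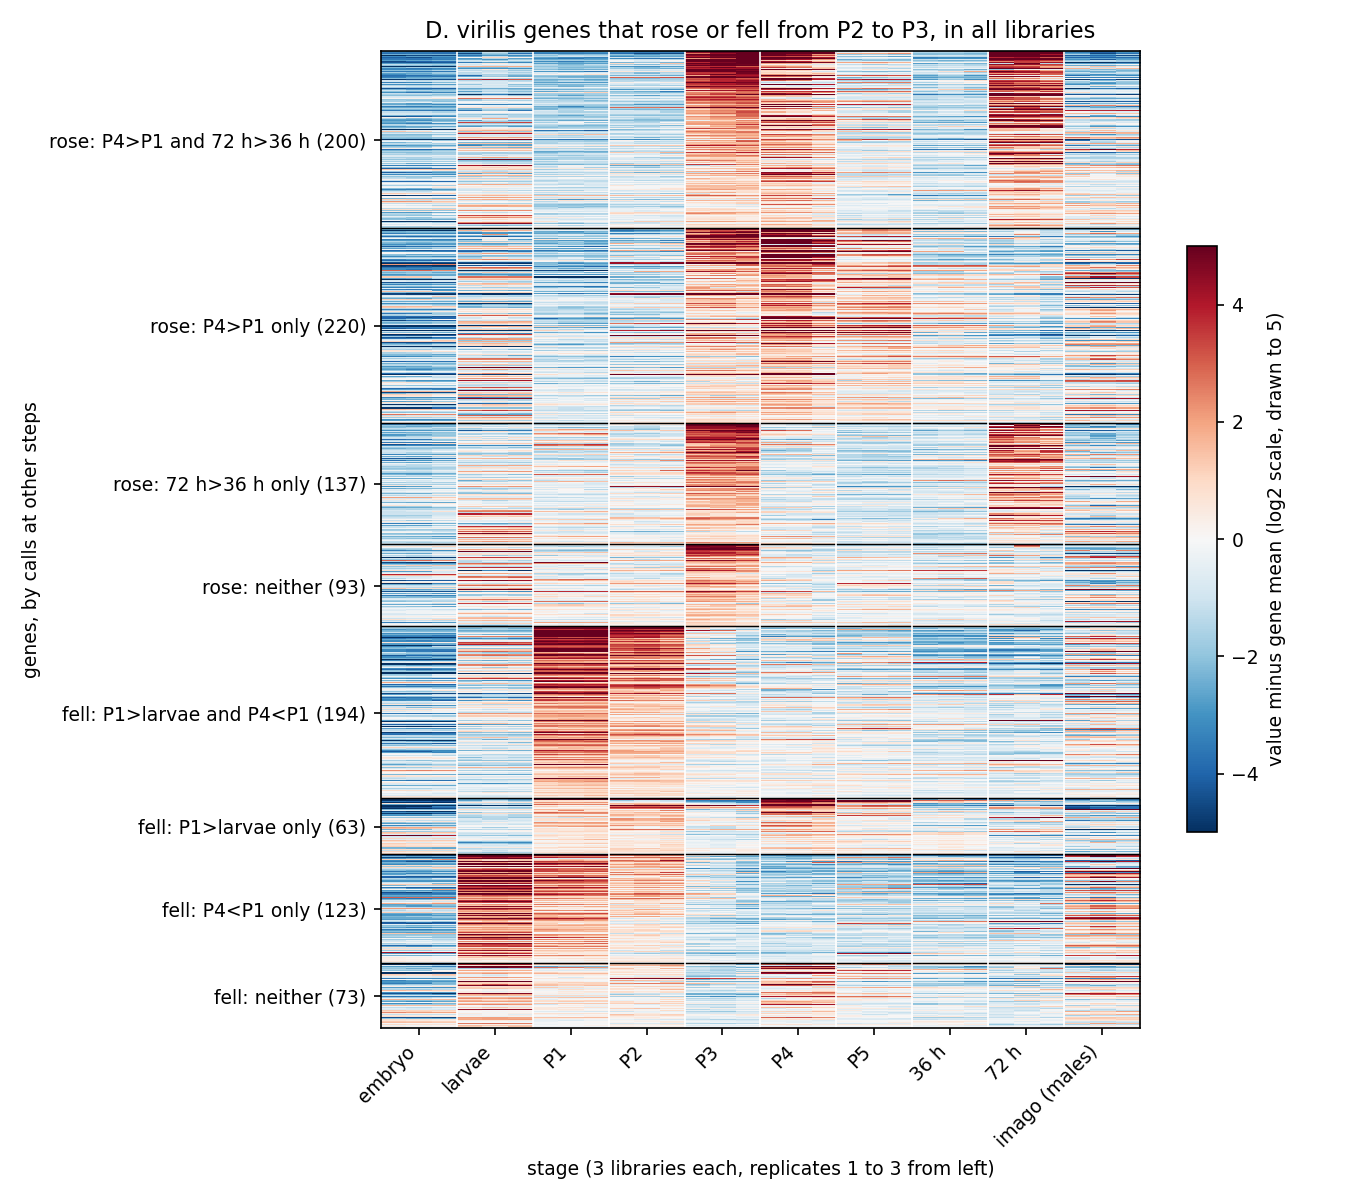
Heat map of the 650 genes that rose and the 453 genes that fell from P2 to P3 (rows, sorted by calls at steps that use no P2 or P3 library, with the number of genes of each class) in the 30 libraries (columns, 3 per stage). Colour gives the value minus the mean of the gene on the deposited log2 scale, drawn to 5 in either direction. The 200 and 137 genes called higher at 72 h than at 36 h are red at P3 and 72 h, and 194 genes that fell are red at P1 and P2.

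P3 replicate 3 offered a check of the calls made without it, although the P2 libraries are the same in both. For 679 of the 750 genes called as risen from P3 replicates 1 and 2 (90.5%), P3 replicate 3 lay above all 3 P2 libraries, against 41.4% of all genes tested. It lay below all P2 libraries for 18. For 476 of the 543 genes called as fallen (87.7%), it lay below all P2 libraries, against 32.4%, and for 8 it lay above them. The median difference from P2 of the 750 genes was 1.61, 1.62 and 1.45 in P3 replicates 1 to 3, and that of the 543 genes was -1.19, -1.35 and -1.26. The library that stood apart thus carried the same change in these genes with similar size.

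**Figure D4:**
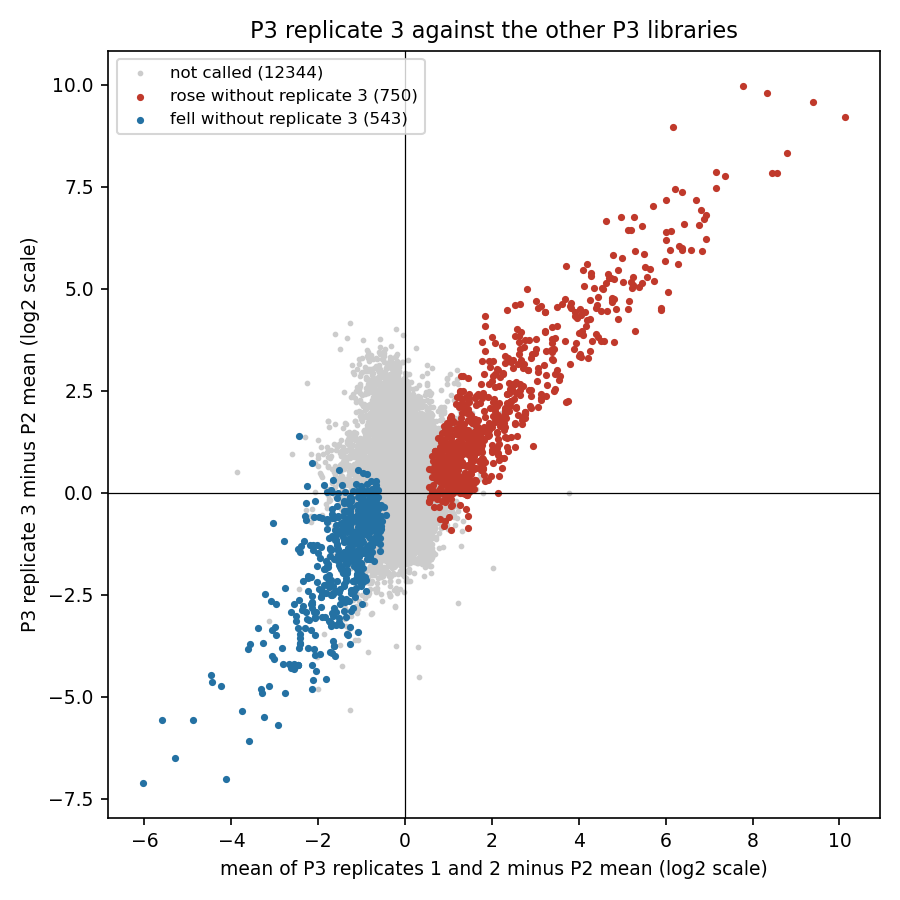
Difference from the P2 mean in P3 replicate 3 (vertical axis) against that in the mean of P3 replicates 1 and 2 (horizontal axis), both on the deposited log2 scale, with 1 point for each of 13637 genes. Red and blue points are the 750 and 543 genes called without P3 replicate 3. Most of them lie on the same side of 0 on both axes, whereas a cloud of grey points, not called, extends upward in replicate 3 alone.

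In P3 replicate 3, 574 genes were at least 2 above both other P3 libraries on the deposited scale and 55 at least 2 below, compared with 6 and 86 in P3 replicate 1 and 13 and 6 in P3 replicate 2. The 574 were 4.21% of all genes tested and held 2 of the 650 genes that rose and 0 of the 453 that fell. Both counts were kept low by the choice of the genes, since a wide spread at P3 works against a call. Of the 750 and 543 genes called without this library, 2 and 4 were among the 574, although the values of P3 replicates 1 and 2 entered both choices. The 574 genes had a median level of 5.51 at P2, 4.93 in P3 replicates 1 and 2 and 7.99 in P3 replicate 3. They took 0.229% and 0.44% of counts in P3 replicates 1 and 2 and 4.91% in replicate 3. Since they were chosen by these values, the levels in P3 are a description.

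In the other stages, which played no part in the choice, most of these genes were highest in adult males. Of the 574, 441 (76.8%) had their highest mean among the 8 other stages in the imago, against 29.8% of all genes tested, and 74 (12.9%) in the embryo, against 19.2%. Without P4 replicate 3 and 72 h replicate 3 the counts were 447 (77.9%) and 82 (14.3%), against 30.1% and 19.6% of all genes tested. Their share of counts was 20.6%, 8.64% and 19.2% in the imago. It was 2.45%, 1.82% and 2.7% at 36 h and 3.16%, 6.49% and 15.2% at 72 h. Each 72 h library thus lay above the 36 h libraries, replicate 1 only slightly, and the highest value was that of 72 h replicate 3, which stood apart. At P4 it was 0.646% and 0.859% in replicates 1 and 2 but 7.57% in replicate 3. Genes that stood at least 2 above both other replicates numbered 626 in P4 replicate 3, of which 400 were among the 574 (63.9% of the 626 and 69.7% of the 574). In 72 h replicate 3 they numbered 431, of which 125 were among the 574 (29% of the 431 and 21.8% of the 574), and in P2 replicate 3 they numbered 79, with 29 shared (36.7% of the 79 and 5.05% of the 574). Every other library outside P3 shared at most 2. The sex of the pupae was not recorded, the markers of testis and other tissues could not be matched, and the part of sex or stage in this group of genes was not tested.

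**Figure D5:**
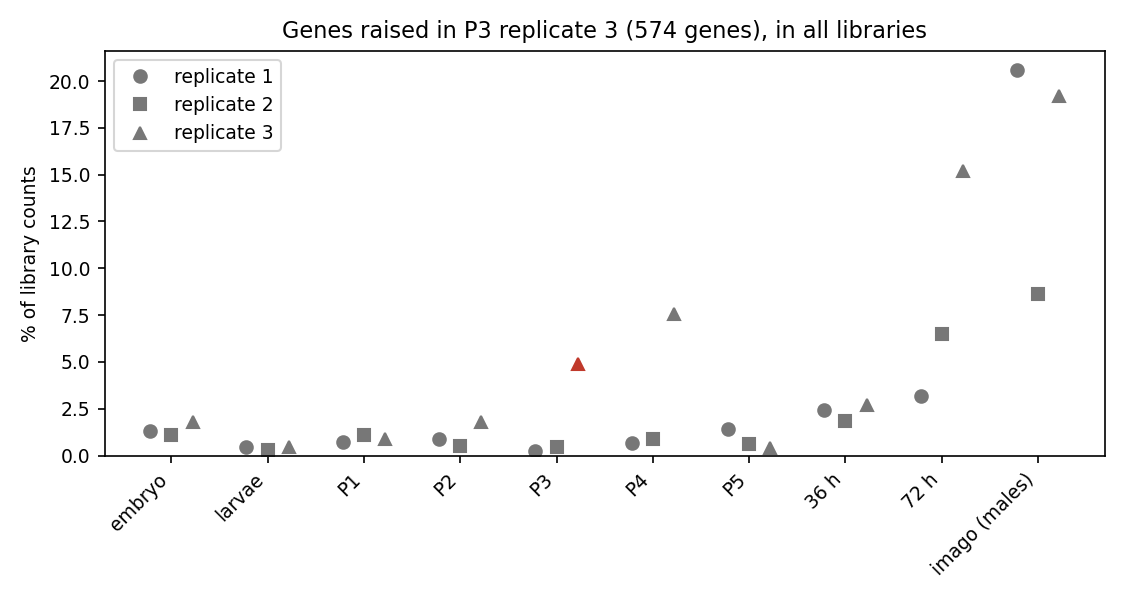
Share of all counts of a library (%, axis from 0) taken by the 574 genes that stood out in P3 replicate 3 (red) in each of the 30 libraries, with 1 symbol per replicate. The share is 4.91% in P3 replicate 3, 7.57% in P4 replicate 3 and 15.2% in 72 h replicate 3, well above the other replicates of these stages, and 20.6%, 8.64% and 19.2% in the imago.

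The 55 genes that were low in P3 replicate 3 had a median level of 11.17 at P2, 10.16 in P3 replicates 1 and 2 and 7.9 in P3 replicate 3. Among the 8 other stages, 27 of the 55 (49.1%) peaked at P1 and 15 (27.3%) in larvae, against 9.09% and 18% of all genes tested. With P4 replicate 3 and 72 h replicate 3 left out the counts were 26 (47.3%) and 15 (27.3%), against 9.06% and 17.4% of all genes tested. Of the 453 genes that fell, 11 (2.43%) were among the 55, against 0.403% of all genes tested, although the low values of P3 replicate 3 entered both choices. Of the 650 that rose, 0 were among them. In rank correlation over all genes, P3 replicate 3 was closer than P3 replicates 1 and 2 to the mean of the pupae aged 72 h (0.817 against 0.682 and 0.747) and of the imago (0.59 against 0.434 and 0.512). It was farther from the larvae (0.554 against 0.737 and 0.683) and from P2 (0.863 against 0.936 and 0.933). Among the stages other than P2 and P3 it was closest to P4, at 0.879, or 0.846 without P4 replicate 3, with which it shares raised genes. The P2 libraries were closest to P1, at 0.935 to 0.954.

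The neighbouring steps share libraries with P2 to P3 and are given only to place it. From P1 to P2, 504 genes rose (3.7%) and 830 fell (6.09%), and without P3 replicate 3 in the model 570 rose (4.18%) and 898 fell (6.59%). From P3 to P4, 1176 genes rose (8.62%) and 1040 fell (7.63%). Without P3 replicate 3 that step had 2527 rises (18.5%) and 1515 falls (11.1%). P4 replicate 3, which shares raised genes with P3 replicate 3, was kept in both fits, and the step was not counted without it. In *D. melanogaster* (strain Oregon-R, wild type), whose values were transformed separately, 551 of 14048 genes rose (3.92%) and 331 fell (2.36%) from P2 to P3. The largest rise there was 8.15 and the largest fall -5.15, against 9.82 and -6.39 in *D. virilis*. Its replicates were closer, with a median SD of 0.118 at P2 and 0.193 at P3, so that the counts of the 2 species are set side by side without a test of their difference.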

How the data were processed

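Per the labels and the study's methods, the authors filtered paired-end poly(A) reads with fastp, estimated transcript abundances with Kallisto, added them up by gene and passed the counts of each species through DESeq2's variance stabilizing transformation. What was deposited is thus a log2 scale value per gene and library, with replicates kept apart. The methods name the DvirRS2 transcriptome for *D. virilis*, whereas the submitters' processing notes list BDGP6. Tool versions are not given in the sources used here. Kallisto divides reads that similar transcripts share, and similarity of the named genes to other genes was not examined.

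Counts were recovered by inverting the transformation, with the lowest value (3.09) taken as a count of 0 and the smallest step of a library as 1 count. Of 13685 genes, 48 did not vary and 13637 were tested. P3 minus P2 was estimated with limma 3.58.1 in R 4.3.3 (lmFit over 10 stages and 30 libraries, or 29 without P3 replicate 3, moderated with a mean-variance trend; calls at a p of 0.05 after Benjamini-Hochberg adjustment). The deposited values were tested, since the inversion is an inference. Replicates were biological pools. An exact permutation test of 3 against 3 libraries cannot give a p below 0.1 and was not used. Genes were named by rule: with no named identifier, the 2 genes with the largest rise and the 2 with the largest fall among those called in both fits without overlap. The comparison, the lists and the groups of genes were chosen with earlier results of these data known. The model fit was tested on simulated data. Alternatives covered the libraries fitted, each replicate left out, a replicate block, weights, scaling, low values, the variance prior, the threshold and voom on the recovered counts. Steps and classes without P4 or 72 h replicate 3 were added after values had been seen. Figures were drawn with matplotlib 3.10.9.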

Additional observations from a re-analysis of the deposited data

How the results depend on the processing

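The 4 named genes kept their direction and their calls under every alternative run. Against 760 rises and 648 falls, 473 and 233 were called when only the P2 and P3 libraries were fitted (fewer samples), but 900 and 517 when P3 replicate 3 was also left out. Of the 648 falls, 419 were at least 1. Array weights gave 3448 and 2904, and 1214 and 1031 without P3 replicate 3; the weighting ended before convergence and put a weight of 90.3 on P3 replicate 2. Leaving out each P2 and P3 replicate in turn gave 625 to 893 rises and 506 to 701 falls. With P3 replicate 3 already left out, the ranges were 474 to 642 and 240 to 475. The low ends came without P3 replicate 2 (474 and 240) and without P3 replicate 1 (479 and 298), when 1 P3 library remains that is assumed to vary like the other stages. Without P3 replicate 3, rises from P3 to P4 went from 1176 to 2527. P4 replicate 3 was kept in both fits, and the cause was not tested. Falls outnumbered rises after quantile normalization (607 and 668) and after centring each library on its median (582 and 737, with a median difference of -0.111 over all genes), so that rises were 47.6% and 44.1% of calls instead of 54%. Without P3 replicate 3 rises outnumbered falls under both (607 and 447, 667 and 502), at 57.6% and 57.1% of calls against 58%. Same-numbered P2 and P3 libraries deviated together with correlations of -0.06, 0.416 and 0.143 (replicates 1 to 3). As given above, P3 replicate 3 shared raised genes with replicate 3 of P4, 72 h and P2. What same-numbered libraries have in common is not recorded in the labels and was not tested. A replicate block gave 809 and 717 calls, and 731 and 507 without P3 replicate 3. The other alternatives stayed within 1.5 times of these counts. Depth limits genes with few counts, whose differences are compressed on the deposited scale.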

Other observations

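Among the P2 libraries, replicate 3 differed most from its replicates, with 79 genes at least 2 above both others on the deposited scale and 10 at least 2 below, compared with 6 and 4 in replicate 1 and 3 and 10 in replicate 2. The 574 genes that stood out in P3 replicate 3 held 0.865%, 0.53% and 1.79% of counts in P2 replicates 1 to 3, so that the highest P2 value was again that of replicate 3. Of the P2 and P3 libraries, P3 replicate 1 had the fewest genes with a count, 12015, and 86 genes at least 2 below both other P3 libraries, whereas P3 replicate 3 had the most, 12846.

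Stage placement of P3 depended on the correlation, on P4 replicate 3 and on the genes used. With all libraries P3 replicate 1 was closest to P5 (Spearman 0.883, Pearson 0.873), and P3 replicate 2 was at 0.891 with both P4 and P5 by Spearman and closest to P4 by Pearson (0.881, against 0.879 for P5). By Spearman both were closest to P4 when P4 replicate 3 was left out (0.887 and 0.909), and to P1 when only genes above the median level were used (0.771 and 0.777).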
